A study of Mus musculus with 21 samples.

Results

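The macrophage lineage transcription factors described here are 9 genes that encode DNA-binding proteins with known roles in setting or holding the identity of monocytes, macrophages and dendritic cells. They are Maf, Sfpi1, Irf8, Irf4, Zeb2, Cebpb, Cebpa, Nr4a1 and Klf4, chosen by symbol from the 34236 gene symbols of a count table covering 21 mouse kidney macrophage libraries. Sfpi1 is the older symbol of Spi1, which encodes PU.1. Each of the 9 was held by a single line of the table, and all 9 passed the filter on low counts in every comparison. Applied once to the whole set of libraries, that filter passed 14504 symbols.

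The libraries were made from RNA of macrophages sorted from kidneys of male C57BL/6J mice, labelled 24 weeks old, after Sham surgery or after surgery that narrowed a renal artery (renal artery stenosis, RAS). No transgene, Cre driver or deletion was part of these groups. From CD45+ F4/80+ CD64+ cells that lacked the lineage markers of lymphocytes, granulocytes and red cells, the gate took CD11bhi CD11chi cells (CD11chi, Sham 3 libraries, RAS 4), CD11bhi cells with low or no CD11c (CD11clo, Sham 3, RAS 4) and cells with intermediate CD11b and CD11c (kidney-resident macrophages, KRM, Sham 4, RAS 3). The labels call CD11chi and CD11clo cells monocyte-derived and KRM resident. The series' design text gives the same numbers of libraries, while the study's methods give fewer RAS samples for CD11chi and CD11clo. The labels do not say that each library came from its own mouse, so p-values here measure the spread between libraries, which may in part be technical.

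Macrophage identity is held by a small set of factors that act on shared enhancers. PU.1, an ETS factor, is needed for all macrophages and opens their enhancers together with C/EBP proteins. C/EBPα acts early in the myeloid lineage, and C/EBPβ acts in monocytes and in inflammatory activation. IRF8 and IRF4 lack strong DNA binding of their own at many sites and pair with PU.1, IRF8 being known from monocytes, resident macrophages and type 1 conventional dendritic cells (cDC1), and IRF4 from type 2 (cDC2). MAF is known from differentiated resident macrophages, where C1q genes are among the genes linked to it. ZEB2 is a zinc finger repressor that maintains the identity of macrophages in several organs. NR4A1 is an orphan nuclear receptor that non-classical (Ly6Clo) monocytes need, and it is also an immediate early gene, induced within minutes by many stimuli. KLF4 is a zinc finger factor that acts in monocyte differentiation.

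Promoter sequence is shown first for 5 of the 8 members called between KRM and CD11clo in Sham kidneys, Nr4a1, Cebpb and Klf4 (the 3 largest falls in KRM) and Irf8 and Cebpa (higher in KRM). The others called were Maf (higher), Sfpi1 and Zeb2 (lower). RefSeq promoter sequences, mouse build GRCm38.p6, were at hand for 7 of the 9 members, in 11 promoters. Each run gives the 250 bases before the start of transcription, 5′ to 3′ on the strand of the gene, and capitals mark TGACG, the core letters of the cAMP response element, or its reverse complement CGTCA.
Nr4a1, chr15:101266596-101266845, plus strand: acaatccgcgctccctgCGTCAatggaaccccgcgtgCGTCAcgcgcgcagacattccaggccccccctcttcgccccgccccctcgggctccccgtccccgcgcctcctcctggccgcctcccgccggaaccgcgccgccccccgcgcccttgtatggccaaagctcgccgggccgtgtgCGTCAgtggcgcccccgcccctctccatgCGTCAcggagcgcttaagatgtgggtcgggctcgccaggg
Cebpb, chr2:167688665-167688914, plus strand: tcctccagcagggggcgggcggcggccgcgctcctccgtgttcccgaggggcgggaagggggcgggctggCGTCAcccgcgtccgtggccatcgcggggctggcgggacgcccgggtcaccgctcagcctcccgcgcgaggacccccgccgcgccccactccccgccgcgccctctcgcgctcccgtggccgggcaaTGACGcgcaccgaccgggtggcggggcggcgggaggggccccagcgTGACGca
Klf4, chr4:55532476-55532725, minus strand: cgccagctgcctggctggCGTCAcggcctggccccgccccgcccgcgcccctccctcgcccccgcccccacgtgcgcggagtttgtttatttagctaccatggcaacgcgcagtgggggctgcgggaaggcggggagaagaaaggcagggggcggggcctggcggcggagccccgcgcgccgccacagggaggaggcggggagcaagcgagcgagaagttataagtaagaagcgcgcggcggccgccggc
Irf8, first promoter, chr8:120736108-120736357, plus strand: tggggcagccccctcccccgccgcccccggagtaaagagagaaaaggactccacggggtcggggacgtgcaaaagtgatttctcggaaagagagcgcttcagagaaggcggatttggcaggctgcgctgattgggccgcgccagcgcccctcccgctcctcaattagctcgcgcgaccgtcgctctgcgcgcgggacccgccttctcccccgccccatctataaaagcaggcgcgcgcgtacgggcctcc
Cebpa, chr7:35119043-35119292, plus strand: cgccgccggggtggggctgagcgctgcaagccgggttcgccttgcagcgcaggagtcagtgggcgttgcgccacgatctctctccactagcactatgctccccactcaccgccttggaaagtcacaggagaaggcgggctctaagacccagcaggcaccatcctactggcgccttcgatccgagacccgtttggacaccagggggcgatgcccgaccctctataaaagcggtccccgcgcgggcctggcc
The Nr4a1 promoter held 4 such matches, starting 233, 213, 69 and 40 bases before the start. Cebpb held 3, at 180, 53 and 7 bases, and Klf4 held 1, at 232 bases. Of the 4 Zeb2 promoters, not printed here, the second and the third overlap and held 1 each, at 67 and 93 bases. The promoters of Irf8, Irf4 and Cebpa held none. Over all 32851 mouse promoters of the same length, 17.8% held TGACG on either strand, 0.688% held at least 3 matches and 0.137% at least 4. The longer TGACGTCA, which contains it, was in 1.55% of all promoters and in none of the members'. Other patterns of letters were searched as well and are not given, and the promoters compared were not matched for GC content. GC content was 74.4% for Nr4a1, 81.6% for Cebpb and 74% for Klf4. It was 67.2% for the first Irf8 promoter, 63.6% for Irf4 and 66.4% for Cebpa. A match is a description of these letters, not a bound site.

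Total counts per library ran from 6891137 to 18592376, and 14606 to 17702 genes were counted. Levels are given as CPM, counts divided by library size and scaled to a common total over all 21 libraries by the trimmed mean of M values (TMM). Emr1, which encodes F4/80, was at 119 CPM or more in every library. Itgax, which encodes CD11c, averaged 289 CPM in CD11chi Sham, 19.2 in CD11clo Sham and 383 in KRM Sham libraries, so it was low in the CD11clo gate, but its mean in KRM, gated as intermediate for the protein, was above that in CD11chi. Several libraries stood apart. Summed proximal tubule genes (8 listed) reached 13312 CPM in CD11chi Sham library 3, 5930 in CD11clo Sham library 3, 2057 in KRM Sham library 3 and 1316 in KRM RAS library 1, against 33.3 to 1066 in the others. KRM RAS libraries 2 and 3 held other tubule genes at 4463 and 3377 CPM and stromal genes at 491 and 552, and KRM RAS library 1 held T and NK cell genes at 453. In CD11chi RAS libraries 3 and 4 the cDC2 genes summed to 7394 and 7561 CPM. The main values include all of these libraries, several results are also given without them, and the part of these other cells in the results was not tested. In RNA from sorted pools, fewer cells of a type and less RNA per cell cannot be told apart.

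Of the members' calls between populations, the largest number lay between KRM and CD11clo in Sham kidneys. There 8 of the 9 passed the test (3 higher and 5 lower in KRM), where 41.8% of the 12399 genes tested did, and 6 passed in the fit that paired the libraries by number. The test throughout is edgeR's quasi-likelihood test with Benjamini-Hochberg adjustment over all genes of the comparison, and a gene is said to rise or fall only at an adjusted p below 0.05. The median log2 fold change of the 9 was -0.49, beside -0.04 over all genes. KRM differed from CD11chi Sham cells in 1 member, against 5.12% of all genes (635 genes, but 89 genes and 0 members when libraries were paired by number), and CD11chi from CD11clo Sham cells in 0 of 9, against 1.52%. At an unadjusted p below 0.05, 2143 of all genes tested separated CD11chi from CD11clo in Sham kidneys, and Cebpb and Nr4a1 were among them. DESeq2 called Cebpb alone of the members in that comparison. In RAS kidneys, 1 member differed between KRM and CD11chi (9.23% of all genes), 1 between KRM and CD11clo (9.17%) and 3 between CD11chi and CD11clo (8.27%).

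Between RAS and Sham, 2 members were called, both in KRM and both higher in RAS, where 9.70% of all genes were called. In CD11chi and in CD11clo no member was called by edgeR and neither was any other gene (0% of 12739 and 0% of 12301), although 1247 and 1102 genes had an unadjusted p below 0.05 and DESeq2 called 197 and 103. Among members only Irf4 in CD11chi had an unadjusted p below 0.05 there (0.00567), and DESeq2 called 1 member there and 0 in CD11clo. The difference in response to RAS between populations, tested as an interaction, called 0 of 9 members in each of the 3 pairs, against 0.245% of genes for KRM minus CD11clo and 0% for the other pairs. At an unadjusted p below 0.05 these held 3289, 2999 and 900 genes of all tested, with Cebpb and Nr4a1 among the members for KRM minus CD11clo, Sfpi1, Irf4 and Nr4a1 for KRM minus CD11chi and Irf4 for CD11chi minus CD11clo. DESeq2 called 2, 1 and 0 members, and 1394, 1270 and 15 genes in all. These comparisons share Sham and RAS libraries with each other, so their counts are not separate lines of evidence.

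**Figure D1:**
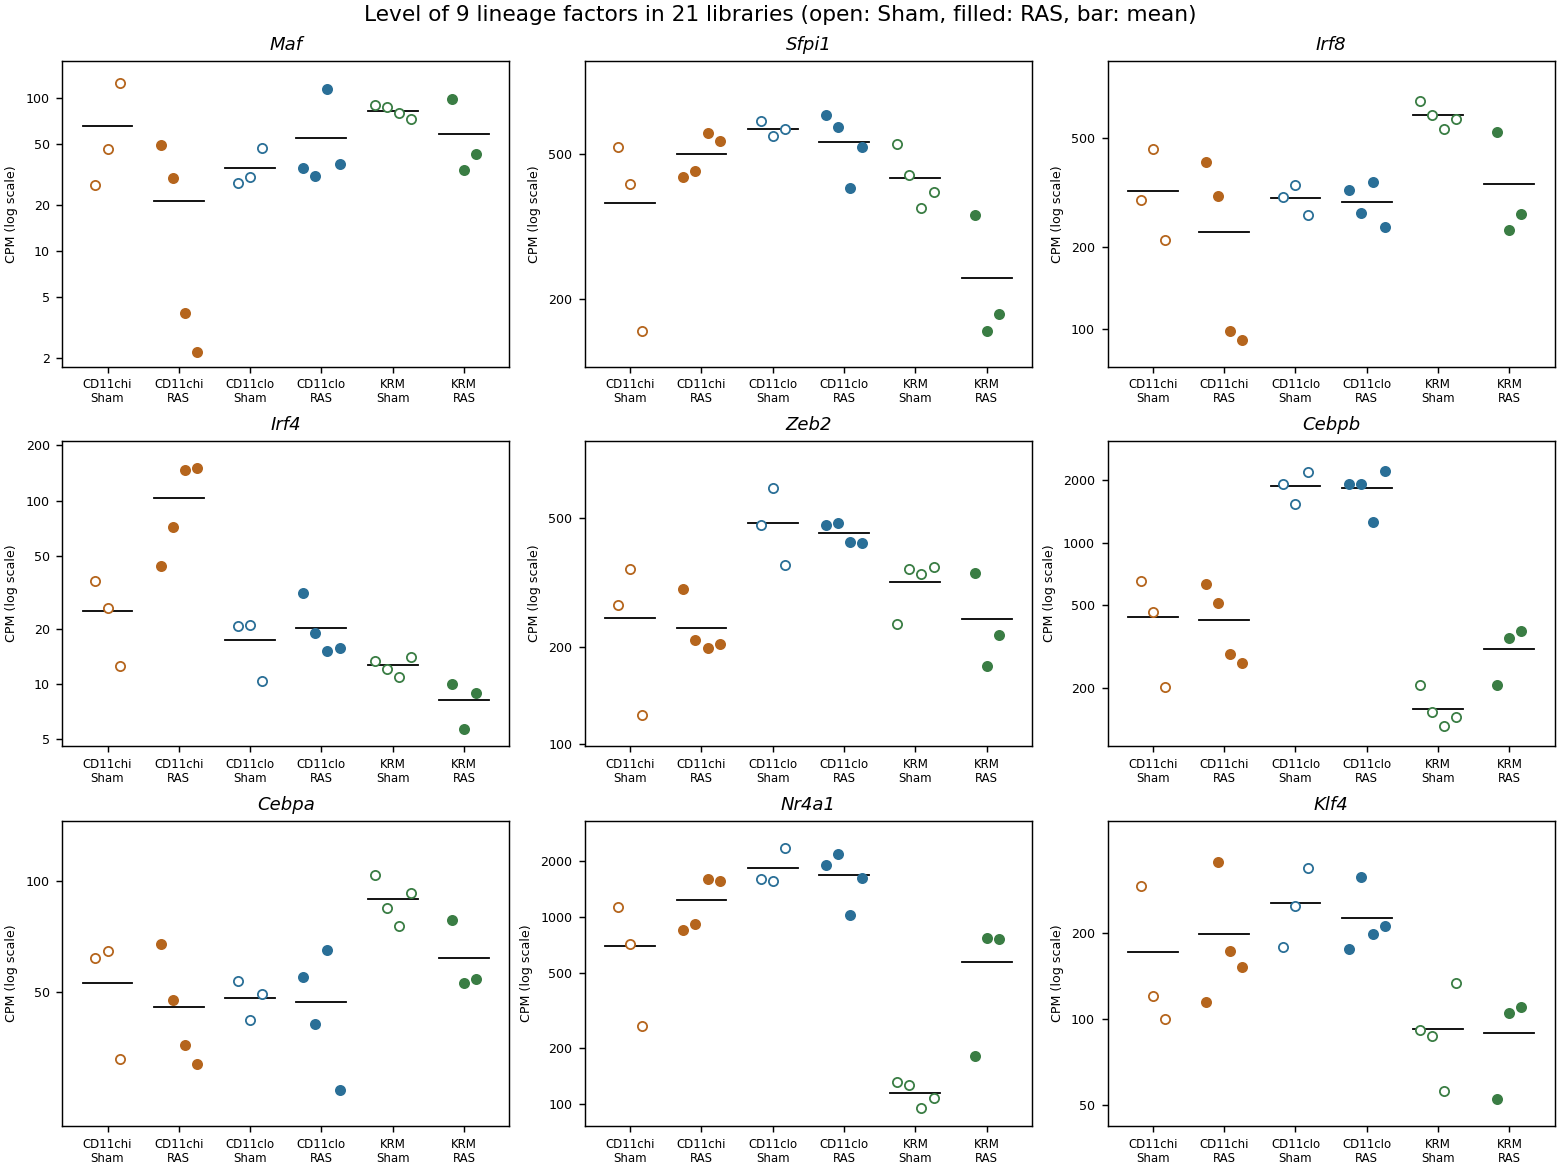
CPM of each of the 9 factors on a log scale in all 21 libraries, by population and surgery (open points Sham, filled points RAS), with the mean of each group as a bar. Nr4a1 and Cebpb have their lowest group means in KRM Sham (115 and 160 CPM), Irf8 has its highest there (606), and Irf4 has its highest in CD11chi RAS (103).

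Levels of different genes can be set side by side only per length of transcript. On the deposited log2 scale of quantile-normalised TPM, in which counts are divided by transcript length, KRM Sham libraries held PU.1 and Irf8 highest among the 9 (group means 8.90 and 8.72 log2 units), followed by Cebpb (7.66), Zeb2 (7.31), Nr4a1 (6.40), Cebpa (5.95), Klf4 (5.70) and Maf (4.92), with Irf4 lowest (2.39). In CD11clo Sham libraries Cebpb (11) and Nr4a1 (10.3) stood highest.

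PU.1, the factor on which all macrophages depend, was abundant in each population. Sfpi1 measured 530.5, 437, 355 and 392 CPM in the KRM Sham libraries and 613, 559 and 583 in CD11clo Sham, so the groups did not overlap. Sfpi1 was lower in KRM by a log2 fold change of -0.47 ± 0.15 (SE, adjusted p = 0.0358). The Sham libraries with the same number vary together, and with the number as a block the adjusted p was 0.0665. The call was also lost without CD11clo Sham library 1 or 2 or KRM Sham library 2, 3 or 4 (adjusted p = 0.0834 to 0.115), and 7 of 16 alternatives kept it. CD11chi Sham libraries spread from 164 to 522 CPM, with the lowest in library 3, and overlapped KRM (0.19 ± 0.36, adjusted p = 0.762, and -0.14, not called, without library 3). In KRM of RAS kidneys Sfpi1 was at 340.2, 164 and 182 CPM, all below the Sham libraries (-0.81 ± 0.27, adjusted p = 0.0884, not called). Without KRM RAS library 1 the difference was -1.23 and was called. Between populations in RAS kidneys, KRM lay below every CD11clo library (404 to 640 CPM) and every CD11chi library (433 to 571). The differences were -1.20 ± 0.31 (adjusted p = 0.0511) and -1.07 ± 0.30 (adjusted p = 0.0606), not called, though 9 and 5 of 17 alternatives called them.

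Genes linked to PU.1 went in both directions. Of 9 tested, 4 rose and 4 fell in KRM against CD11clo Sham cells, where 19.5% of all genes rose and 22.3% fell. For KRM against CD11chi in Sham kidneys these shares were 1.00% and 4.12%, and for RAS against Sham in KRM 7.77% and 1.94%. The counts of listed genes here and below are to be read beside these shares. Fcgr1, the Fc receptor CD64 used in the gate, rose by 1.10 on the log2 scale, and Csf1r, the receptor for the growth factor that macrophages live on, rose by 0.71. Itgb2, the beta chain of leukocyte integrins, fell by 1.84 and Msr1, a scavenger receptor, fell by 1.93. None of the 9 was called between KRM and CD11chi in Sham kidneys, and neither was any ETS relative but Spib, which is known from plasmacytoid dendritic cells and B cells and was at 2.44 to 10.4 CPM in CD11chi and at 0.0997 to 0.523 in KRM. Against CD11clo, 4 of 9 ETS relatives tested rose (Ets1 by 3.72, Spic, known from splenic red pulp macrophages, by 1.80, with Elf1 by 0.39 and Fli1 by 0.36) and 2 fell (Ets2 by 1.96 and Etv6 by 0.46). Etv6 is a repressor of the same family.

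Irf8 was highest in KRM in Sham kidneys. The KRM Sham libraries measured 685, 611, 541 and 588 CPM, against 305, 337 and 260 in CD11clo Sham and 297, 455 and 212 in CD11chi Sham. No Sham library of either monocyte-derived population reached the lowest KRM library. Irf8 rose by 0.99 ± 0.15 (SE, log2) over CD11clo (adjusted p = 0.00104), in 3 of 3 pairs of same-numbered libraries. The call held in 15 of 16 alternatives, and it was lost when all 6 groups shared a fit (adjusted p = 0.106). Over CD11chi the difference was 0.88 ± 0.26 (adjusted p = 0.104, not called). Leaving out each library in turn gave 0.68 to 1.20 with adjusted p up to 0.249, and 1 of 7 such fits called it, the fit without CD11chi Sham library 2 (0.0381). Without CD11chi Sham library 3 it was 0.68 (adjusted p = 0.0502). Of genes known from cDC1, 5 of 6 tested rose in KRM against CD11clo Sham cells. Against CD11chi Sham cells 1 of 7 tested rose (Cadm1 by 1.41) and 2 fell (Xcr1 by 1.97 and Itgae by 3.33). Summed, the 7 cDC1 genes were at 756 to 866 CPM in KRM Sham, 307 to 704 in CD11chi Sham and 99.2 to 127 in CD11clo Sham, and their part in the Irf8 difference was not tested.

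After RAS, Irf8 in KRM was at 527, 231 and 265 CPM, each below every Sham library. The difference was -0.73 ± 0.28 (adjusted p = 0.113) and was not called. Library 1 lay nearest to Sham. Without it the log2 fold change was -1.22 and was called, in a fit that called 7070 genes in all. Irf8 in CD11chi RAS cells split, with 409 and 307 CPM in libraries 1 and 2 and 98.4 and 90.7 in libraries 3 and 4. In CD11clo cells it stayed within 235 to 345 CPM in both surgeries together. In RAS kidneys KRM overlapped both other populations, with differences of 0.26 ± 0.30 against CD11clo (adjusted p = 0.564) and 0.63 ± 0.58 against CD11chi (adjusted p = 0.500), and without KRM RAS library 1 they were -0.19 and 0.17, neither called.

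Irf4, the cDC2-associated relative, was highest in CD11chi RAS. In Sham kidneys KRM libraries held 11 to 14.1 CPM and overlapped both other populations. The differences were -0.49 ± 0.27 (SE, log2) against CD11clo (adjusted p = 0.191) and -1.03 ± 0.32 against CD11chi (adjusted p = 0.113), neither called. CD11chi RAS libraries held 44.1, 71.8, 146 and 151 CPM, and each was above every other library of the set, the next being a CD11chi Sham library at 36.6. CD11clo RAS libraries held 31.4, 19, 15.2 and 15.7 CPM and KRM RAS libraries 10, 5.73 and 8.97. In RAS kidneys Irf4 was 5.05-fold higher in CD11chi than in CD11clo (log2 2.34 ± 0.42, SE, adjusted p = 0.0132) and 12-fold lower in KRM than in CD11chi (-3.59 ± 0.50, adjusted p = 0.0166). The latter call was lost without CD11chi RAS library 3 or 4 or KRM RAS library 2 or 3 (largest adjusted p = 0.105), and the former without CD11clo RAS library 2 or 4 (0.0504 and 0.0518). In both, the direction stayed.

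Within CD11chi the Sham libraries held 36.6, 26.1 and 12.5 CPM of Irf4, all below the RAS libraries, and the difference on the log2 scale was 1.96 ± 0.53, which did not pass the test (adjusted p = 0.508, with 1.75 without CD11chi RAS library 3 and 1.72 without library 4). No gene at all was called there by edgeR. The differences in response were -2.52 ± 0.60 for KRM minus CD11chi (adjusted p = 0.0980, and 0.0376 at -2.68 without KRM RAS library 1) and 1.80 ± 0.66 for CD11chi minus CD11clo (adjusted p = 0.735). CD11chi RAS libraries 3 and 4 were also the most alike of that group, with a mean chi-square per gene of 5.13 between their counts against 94.3 to 128 for its other pairs. They differed by more than counting noise, which gives 1, and were kept as separate samples. The libraries with the most Irf4, CD11chi RAS 3 and 4, are those with the most cDC2 genes, and also the dendritic cell genes summed to 1639 and 1853 CPM there against 313 to 892 in the other CD11chi libraries. Zbtb46, a factor of conventional dendritic cells, ran from 62.1 to 167 CPM in CD11chi RAS and from 4.05 to 8.03 in CD11clo RAS. Their part in the Irf4 values was not tested.

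**Figure D2:**
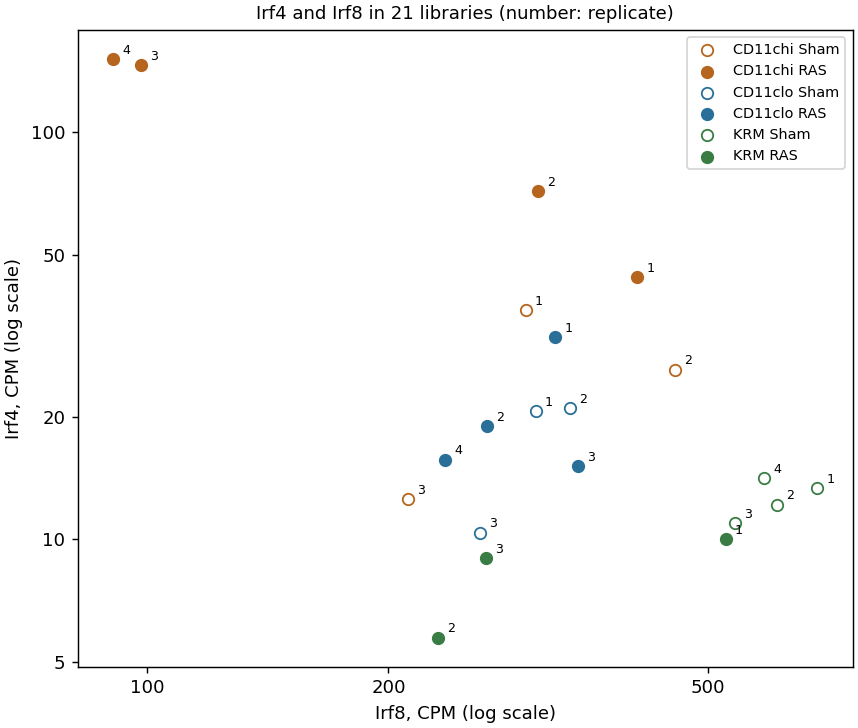
Irf4 against Irf8 in CPM on log axes, with a point for each of the 21 libraries, coloured by population, open for Sham and filled for RAS, and numbered by replicate. KRM Sham libraries sit at high Irf8 and low Irf4 (541 to 685 and 11 to 14.1), and CD11chi RAS libraries 3 and 4 sit at the other end, with Irf8 at 98.4 and 90.7 and Irf4 at 146 and 151.

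The ratio of Irf8 to Irf4 CPM set KRM apart from the other populations, as a description. It was 41.7 to 51.3 in KRM Sham and 29.5 to 52.6 in KRM RAS, 14.8 to 25.1 in CD11clo Sham, 8.11 to 17.4 in CD11chi Sham, and 9.28, 4.28, 0.673 and 0.599 in the 4 CD11chi RAS libraries. Among the 7 IRF relatives, none rose and 2 fell in KRM against CD11clo Sham cells, Irf7, a factor of the interferon response, by 1.17 and Irf2 by 0.60. None of the 7 was called against CD11chi in Sham kidneys.

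Cebpb was highest in CD11clo. The CD11clo Sham libraries held 1901, 1526 and 2181 CPM, and KRM Sham libraries held 208, 155, 132 and 145. CD11chi Sham libraries lay between them at 657, 463 and 202 CPM, the lowest just under the top KRM library. Cebpb was 11.8-fold lower in KRM than in CD11clo (log2 -3.56 ± 0.20, SE, adjusted p = 6.67e-06), lower in 3 of 3 same-numbered pairs and called in 16 of 16 alternatives. Against CD11chi it was -1.50 ± 0.36 (adjusted p = 0.0612), and between CD11chi and CD11clo it was -2.04 ± 0.45 (adjusted p = 0.0910). Without CD11chi Sham library 3 both were called, at -1.82 and -1.75.

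In RAS kidneys CD11clo again held the most. CD11clo libraries held 1919, 1912, 1255 and 2198 CPM, CD11chi 635, 514, 294 and 264, and KRM 207, 348 and 377. Cebpb was 4.27-fold lower in CD11chi than in CD11clo (-2.09 ± 0.35, adjusted p = 0.0103), a call that held in 17 of 17 alternatives. It was 5.68-fold lower in KRM than in CD11clo (-2.51 ± 0.34, adjusted p = 0.0155), a call lost without CD11clo RAS library 2 or 4 or KRM RAS library 2 or 3 (largest adjusted p = 0.0901). KRM and CD11chi overlapped (-0.39 ± 0.39, adjusted p = 0.532), and the sign turned in limma on the log2 TPM table (0.41, or 0.45 without the KRM RAS library 1 column, which did not correspond with its counts) and in the counts without the RAS libraries numbered 1 (0.10), none called. Summed, the 10 listed neutrophil genes were at 697 to 2427 CPM in CD11clo libraries, 6.44 to 232 in CD11chi and at most 11.5 in KRM. A sum does not show that each of them was higher in CD11clo, and their part in the Cebpb level was not tested.

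Within KRM, Cebpb rose 2.10-fold in RAS (log2 1.07 ± 0.25, adjusted p = 0.0409). The groups overlapped, since KRM RAS library 1, at 207 CPM, lay just under the highest Sham library at 208, while libraries 2 and 3 lay above all Sham libraries. Without KRM RAS library 1 it was 1.26. KRM RAS libraries 2 and 3 are also those with the other tubule and stromal genes, whose part in the rise was not tested. The mean chi-square per gene between their counts was 10.1, against 136 and 107 with library 1. The call was lost on leaving out any KRM Sham library, or KRM RAS library 2 or 3 (adjusted p = 0.0644 to 0.161). It was also lost with the replicate block (adjusted p = 0.189) and in the fit shared by all 6 groups (0.107). It was kept in 9 of 17 alternatives. The response did not differ past the threshold between KRM and CD11clo (1.05 ± 0.36, adjusted p = 0.118) or CD11chi (1.13 ± 0.57, adjusted p = 0.279).

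Cebpa, the earlier-acting C/EBP, went the other way at lower counts. KRM Sham libraries held 104, 84.5, 75.5 and 92.8 CPM, CD11clo Sham 53.7, 42 and 49.3, and CD11chi Sham 61.7, 64.5 and 33.0, with no overlap between KRM and either. Cebpa rose by 0.86 ± 0.14 (SE, log2) in KRM over CD11clo (adjusted p = 0.00202) and was called in 16 of 16 alternatives. Over CD11chi the difference was 0.71 ± 0.24 (adjusted p = 0.132), or 0.49 without CD11chi Sham library 3 (0.0639). KRM RAS libraries held 78.2, 52.9 and 54.3 CPM, overlapping the Sham range (-0.43 ± 0.17, adjusted p = 0.132), and without library 1 the difference was -0.66 and called. As a ratio of CPM, Cebpb to Cebpa was 1.57 to 2.00 in KRM Sham, 2.65, 6.59 and 6.94 in KRM RAS, 6.13 to 10.8 over the 7 CD11chi libraries and 19.3 to 81.0 over the 7 CD11clo libraries, with no overlap between populations in Sham kidneys.

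Of the 5 C/EBP relatives, none rose and 2 fell in KRM against CD11clo Sham cells. Cebpd, an acute-phase relative, fell by 1.16 on the log2 scale. Cebpe, known from granulocyte maturation, was at 6.19 to 18.7 CPM in CD11clo Sham and at 0 to 0.0499 in KRM Sham.

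Maf was higher in KRM than in CD11clo Sham cells. The KRM Sham libraries were close together at 89.5, 87.1, 79.4 and 72.9 CPM, and CD11clo Sham libraries held 27.8, 30.4 and 47.1. Maf was 2.32-fold higher in KRM (log2 1.21 ± 0.19, SE, adjusted p = 0.00128), in 3 of 3 same-numbered pairs and in 15 of 16 alternatives, the exception being the fit shared by all 6 groups (adjusted p = 0.285). CD11chi Sham libraries spread from 26.9 and 46.6 to 125 CPM, the last in library 3, whose proximal tubule genes were highest. Against them the KRM difference was 0.23 ± 0.49 (adjusted p = 0.792), and single libraries decided it. Without CD11chi Sham library 1 it was -0.12, without library 2 it was 0.05, neither called, and without library 3 it was 1.15 and called (adjusted p = 0.0141).

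In RAS kidneys single libraries set the Maf values apart. CD11chi RAS libraries held 49.1, 29.8, 3.90 and 2.19 CPM, the last pair being the libraries with the most cDC2 genes, and RAS against Sham gave -1.73 ± 1.03 (adjusted p = 0.570). Leaving out each library in turn gave -2.59 (without CD11chi RAS library 1) to -0.79 (without CD11chi Sham library 3), with -1.4 and -1.37 without CD11chi RAS library 3 or 4, none called. CD11clo RAS libraries held 34.8, 30.9, 115 and 37.2 CPM, and library 3, which stood out, also held 10469 CPM of summed genes linked to MAF, against 1420 to 2893 in CD11clo Sham. KRM RAS libraries held 98.4, 33.8 and 42.9 CPM (-0.40 ± 0.34, adjusted p = 0.419), and without library 1 the difference was -1.03 and called. No comparison in RAS kidneys called Maf.

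**Figure D3:**
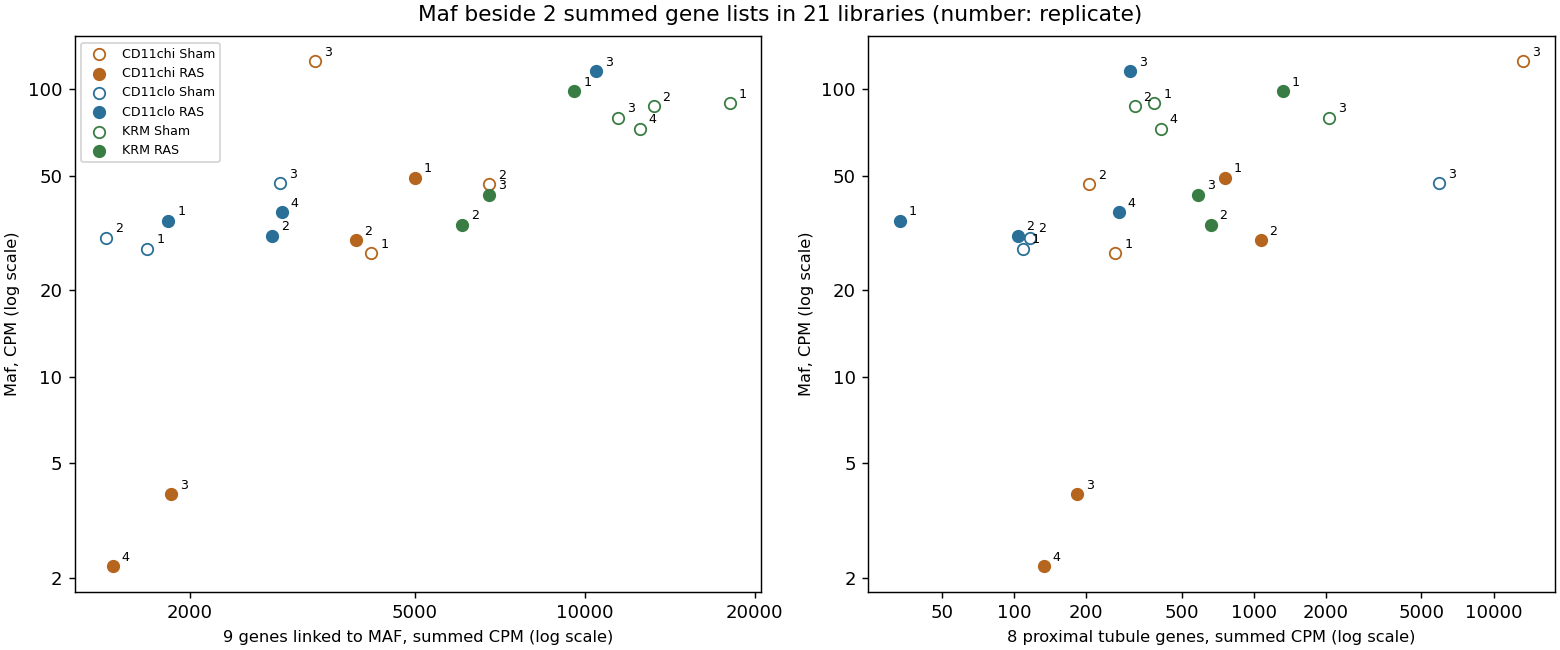
Maf in CPM against the summed CPM of 9 genes linked to MAF (left) and of 8 proximal tubule genes (right), all on log axes, with a numbered point for each of the 21 libraries, open for Sham and filled for RAS. CD11chi Sham library 3 lies highest in Maf (125) and in proximal tubule genes (13312), and CD11chi RAS libraries 3 and 4 lie lowest in Maf (3.90 and 2.19).

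The small MAF proteins, which lack the activating domain, fell in KRM against CD11clo Sham cells: Maff by 2.27, Mafk by 1.39 and Mafg by 0.38.

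The 9 genes linked to MAF went in both directions. In KRM against CD11clo Sham cells 4 rose and 5 fell. C1qa and C1qc, chains of the complement protein C1q, rose by 3.41 and 3.15 on the log2 scale. Cd163, the haemoglobin scavenger receptor, fell by 4.02, and Lyve1, a hyaluronan receptor of perivascular macrophages, was at 85.7 to 365 CPM in CD11clo Sham and 0.106 to 1.32 in KRM Sham. Against CD11chi Sham cells 3 rose, C1qa by 1.62 and C1qc by 1.61 among them, and 4 fell, Cd163 by 2.41 and Folr2, a folate receptor of tissue macrophages, by 4.29.

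Zeb2 was highest in CD11clo. CD11clo Sham libraries held 477, 621 and 357 CPM, KRM Sham 235, 347, 336 and 353, and CD11chi Sham 268, 347 and 122. The lowest CD11clo library lay only just above the highest KRM library. Zeb2 fell by 0.64 ± 0.22 (SE, log2) in KRM against CD11clo, at an adjusted p of 0.0499. With the replicate block the adjusted p was 0.0614, the call was lost without CD11clo Sham library 1 or 2 or any KRM Sham library (0.0768 to 0.204), and 6 of 16 alternatives kept it. In RAS kidneys Zeb2 was 1.98-fold lower in CD11chi (302, 210, 197 and 204 CPM) than in CD11clo (478, 485, 422 and 419.6), with a difference of -0.99 ± 0.21 on the log2 scale (adjusted p = 0.0233). This call was lost without CD11chi RAS library 3 or 4 or CD11clo RAS library 1, 2 or 4 (0.0566 to 0.0938) and was kept in 10 of 17 alternatives. RAS against Sham gave log2 fold changes of -0.28, -0.17 and -0.11 in KRM, CD11chi and CD11clo, none called, and -0.63 in KRM without RAS library 1, which was called (adjusted p = 0.0314). Its relative Zeb1 went the other way in that comparison of RAS kidneys, higher in CD11chi by 1.36 on the log2 scale.

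Nr4a1 gave the largest difference of the 9, between KRM and CD11clo in Sham kidneys. CD11clo Sham libraries held 1595, 1556 and 2340 CPM, CD11chi Sham 1126, 721 and 260, and KRM Sham only 131, 126, 95.3 and 108. No library of either monocyte-derived population reached as low as the highest KRM Sham library. Nr4a1 was 16.1-fold lower in KRM than in CD11clo (log2 -4.01 ± 0.19, SE, adjusted p = 3.67e-06), called in 16 of 16 alternatives and lower in 3 of 3 same-numbered pairs (log2 differences of -4.62 to -3.60). It was 6.25-fold lower than in CD11chi (-2.64 ± 0.43, adjusted p = 0.0186), the only member called there, lower in 3 of 3 pairs (-3.10 to -1.45). That call was lost with the replicate block (adjusted p = 0.0857) and without CD11chi Sham library 1 or any KRM Sham library (0.0579 to 0.0766), and 9 of 16 alternatives kept it. Without CD11chi Sham library 3 the difference was -3.02 (adjusted p = 9.47e-05).

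Nr4a1 was higher in KRM of RAS kidneys than in KRM of Sham kidneys. The KRM RAS libraries held 180, 768 and 766 CPM against 95.3 to 131 in Sham, with no overlap, and the rise was 5.39-fold (log2 2.43 ± 0.46, SE, adjusted p = 0.0279). Library 1 lay close to Sham and libraries 2 and 3 far above it. Without library 1 the log2 fold change was 2.81 (adjusted p = 1.04e-05). The call was lost without KRM Sham library 1, 2 or 4 or KRM RAS library 2 or 3 (adjusted p = 0.0881 to 0.102). It was also lost with the replicate block (adjusted p = 0.145), and it held in 11 of 17 alternatives. In CD11chi (848, 915, 1597 and 1559 CPM in RAS) and CD11clo (1895, 2164, 1025 and 1605) Nr4a1 overlapped its Sham values, with log2 fold changes of 0.73 ± 0.51 and -0.15 ± 0.30, neither called. The response of KRM exceeded that of CD11clo by 2.50 ± 0.56, which missed the threshold (adjusted p = 0.0670), and that of CD11chi by 1.65 ± 0.71 (adjusted p = 0.205). Without KRM RAS library 1 the first was 2.90 (adjusted p = 0.000775). KRM RAS libraries 2 and 3 are those with the other tubule, endothelial (207 and 177 CPM, against 10.2 to 22.7 in KRM Sham) and stromal genes, whose part in the rise was not tested.

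**Figure D4:**
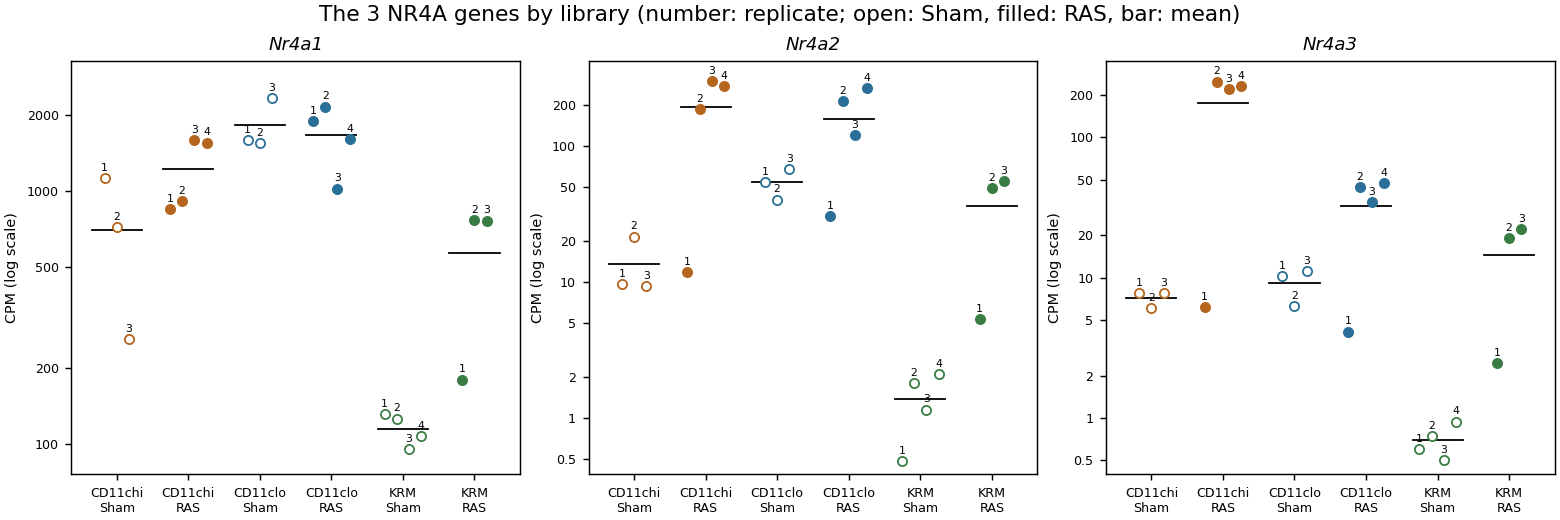
Nr4a1, Nr4a2 and Nr4a3 in CPM on a log scale in all 21 libraries, by population and surgery (open points Sham, filled points RAS, numbers for replicates, bars for means). All 3 have their lowest group mean in KRM Sham, and in KRM RAS libraries 2 and 3 lie above library 1 for each gene.

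The other NR4A receptors followed. Nr4a2 was at 0.481 to 2.09 CPM and Nr4a3 at 0.498 to 0.943 in KRM Sham, and both fell in KRM against CD11clo (by 5.30 and 3.74 on the log2 scale) and against CD11chi (by 3.32 and 3.43). Both rose in KRM after RAS. Nr4a2 reached 5.30, 48.9 and 54.7 CPM (log2 fold change 4.83, adjusted p = 0.0231) and Nr4a3 reached 2.46, 19.1 and 22.2 (4.51, adjusted p = 0.0217). For each of the 3 genes, library 1 was the lowest of the KRM RAS libraries. CD11chi RAS and CD11clo RAS libraries also split, library 1 holding 11.8 and 30.6 CPM of Nr4a2 and the others 187 to 300 and 120 to 267, where Nr4a1 in library 1 was at 848 and 1895 CPM.

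Because NR4A genes are immediate early genes, the rest of that class is given beside them. Of 19 tested, 8 fell and 3 rose in KRM against CD11clo Sham cells. Ier3, an early response gene, fell by 3.02 on the log2 scale, while the heat shock genes Hspa1a and Hspa1b rose by 2.09 and 2.30. Summed, the class was at 36269 to 55420 CPM in KRM Sham and 27306 to 45266 in CD11clo Sham, with overlap. In KRM after RAS 4 rose, among them the 2 NR4A relatives, and 3 fell, among them Jun by 1.22 and Hspa1a by 1.4. The labels give 5 hours for the sort. Non-classical monocyte genes also went in both directions: against CD11clo Sham cells 2 of 9 rose in KRM, Spn (CD43) by 1.57 and Pou2f2 by 1.24, and 7 fell, among them Emr4 (-3.85) and Itgal (-2.34). All 9 classical monocyte genes fell, among them Fn1 (-7.49) and Ly6c2 (-6.81).

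Klf4 was lower in KRM than in CD11clo. KRM Sham libraries held 91.2, 87.3, 55.8 and 133 CPM, and CD11clo Sham 178, 249 and 337. Klf4 fell by 1.49 ± 0.29 (SE, log2, adjusted p = 0.00391), in 16 of 16 alternatives and 3 of 3 pairs. CD11chi Sham libraries, at 293, 120 and 99.9 CPM, overlapped both. In RAS kidneys KRM (52.5, 105 and 110 CPM) lay below CD11clo (176, 314, 198 and 211) and CD11chi (114, 354, 173 and 151) without overlap. The differences, -1.29 ± 0.34 (adjusted p = 0.0540) and -1.10 ± 0.47 (adjusted p = 0.157), were not called. In limma on the log2 TPM table they were -0.05 and 0.28, or -0.68 and -0.34 without the KRM RAS library 1 column, none called. Of 17 alternatives, 4 called the first, the replicate block among them (adjusted p = 0.0467). RAS gave log2 fold changes of 0.08, 0.14 and -0.20 in KRM, CD11chi and CD11clo, none called. Among its 10 KLF relatives, 7 fell and none rose in KRM against CD11clo Sham cells, from Klf9 (by 2.09), Klf10 (by 1.95), Klf7 (by 1.51), Klf13 (by 1.35) and Klf3 (by 1.05) to Klf2 (by 0.97) and Klf11 (by 0.83). None was called against CD11chi in Sham kidneys.

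**Figure D5:**
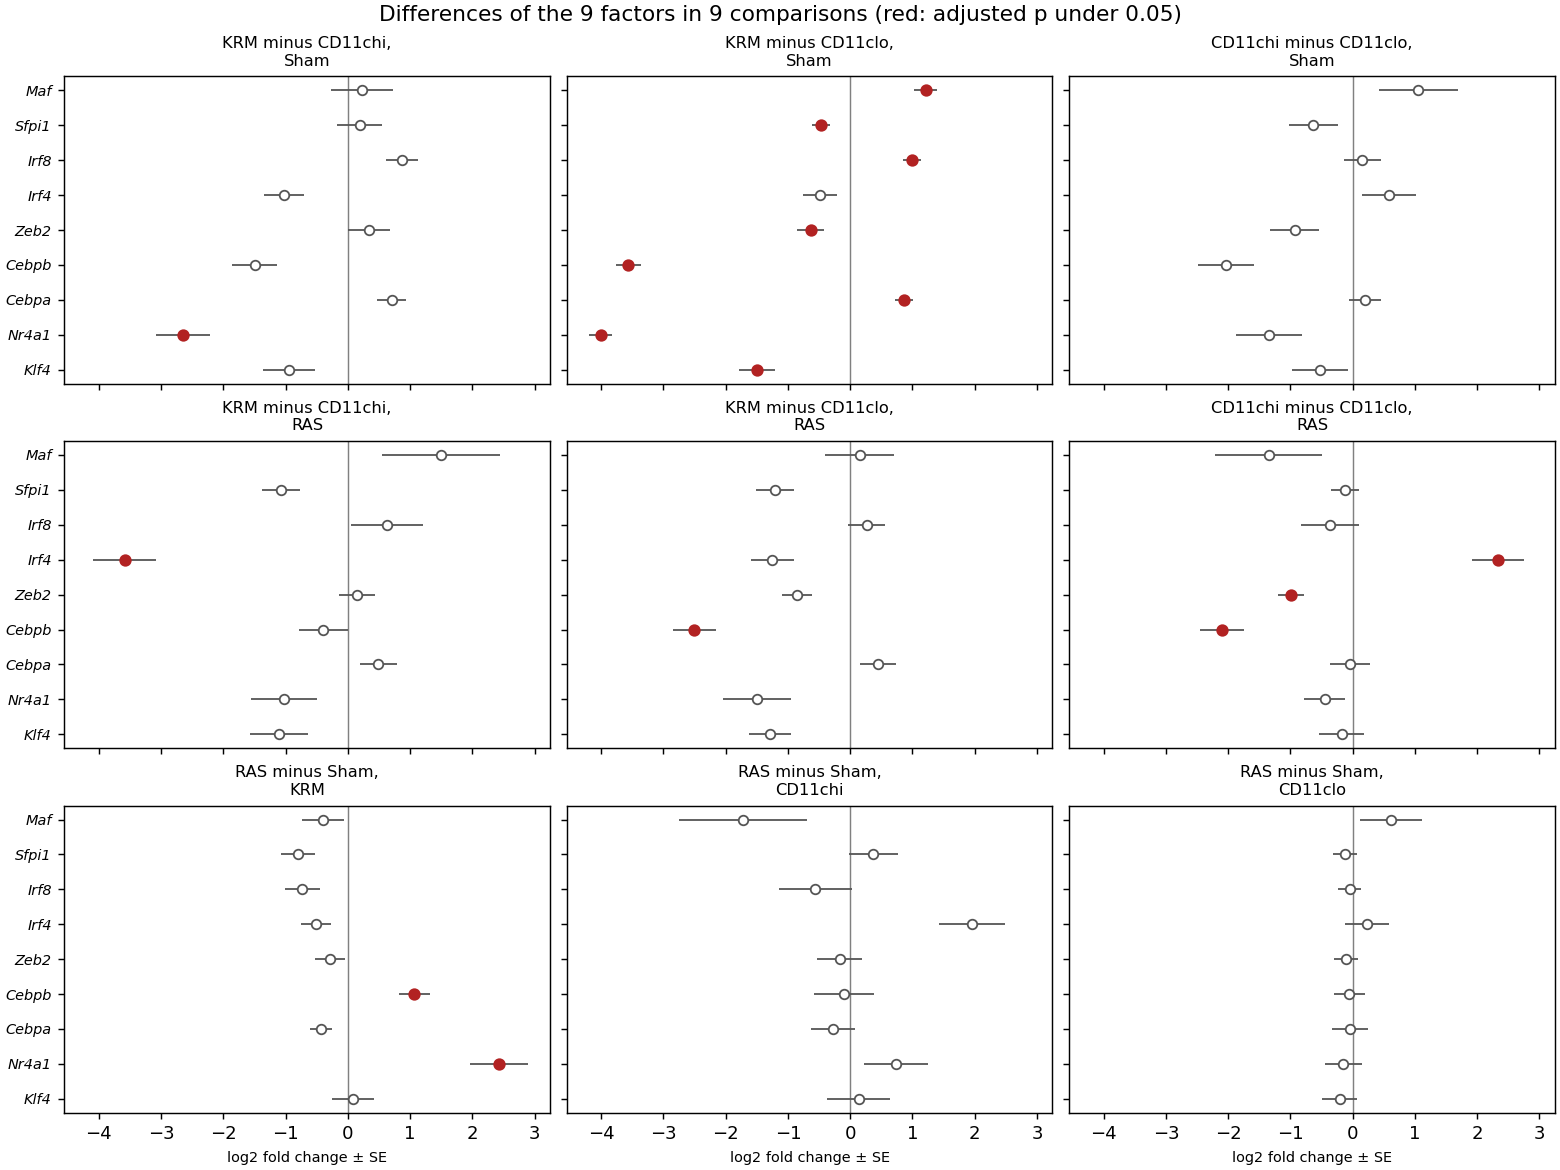
Log2 fold change of each of the 9 factors with its standard error in 9 comparisons of populations or of RAS with Sham, in red where the adjusted p was below 0.05. Of the 16 red points, 8 lie in KRM against CD11clo in Sham kidneys, and Nr4a1 there (-4.01), Irf4 in KRM against CD11chi in RAS kidneys (-3.59) and Cebpb in KRM against CD11clo in Sham kidneys (-3.56) lie farthest from 0.

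Other factors of myeloid fate, 24 of which were tested between the Sham populations of KRM and CD11clo, gave 7 that rose and 10 that fell in KRM. Runx1 (by 1.72 on the log2 scale) and Pparg, the lipid-sensing receptor of alveolar macrophages (by 2.01), rose, and Bhlhe40, a repressor induced by activation (-5.28), and the retinoic acid receptor Rara (-3.89) fell. Against CD11chi none rose and 5 fell, Bhlhe40 by 5.07 and Zbtb46 by 3.88 among them. Bhlhe40 ran beside Nr4a1 in KRM, from 4.33 to 8.05 CPM in Sham to 40.7, 515 and 415 in RAS (log2 fold change 5.74, adjusted p = 0.0163). Its response exceeded that of CD11clo by 5.42 (adjusted p = 0.0377). Without KRM Sham library 1, 2 or 3 the fit of that response called no gene, and with the replicate block it called 1 in all. In CD11chi, Bhlhe40 held 351, 175 and 121 CPM in Sham and 215, 803, 1800 and 1902 in RAS, where edgeR called no gene. Egr2 rose by 2.56 in KRM after RAS, and Pparg and Runx1 fell by 0.83 and 0.99.

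The members also varied together over the 21 libraries, which share depth, batch and population, so correlations of log2 CPM are given as description. The closest pairs were Cebpa with Irf8 (r = 0.846), Cebpb with Nr4a1 (0.830), Irf8 with Maf (0.812) and Klf4 with Nr4a1 (0.773), and the most opposed were Irf4 with Maf (-0.788) and Cebpa with Nr4a1 (-0.680). The genes most like each member were Sepp1, Cmah and Fez2 for Maf (r = 0.935, 0.930 and 0.918), Selplg, Gsdmd and Gnai2 for Sfpi1 (0.974, 0.973 and 0.964) and Ing4, Tbx6 and 2900005J15Rik for Irf8 (0.941, 0.937 and 0.934). For Irf4 they were Ppm1m, Gm2a and Wdfy4 (0.958, 0.955 and 0.936), and for Zeb2 Ms4a6b, Naip5 and Abcd2 (0.945, 0.941 and 0.940). Cebpb lay closest to Pygl, Alox5 and Fas (0.955, 0.954 and 0.950), and Nr4a1 to Fam129b, Nfil3 and Plaur (0.979, 0.976 and 0.973). Cebpa and Klf4 had looser company, with AW146020, Tmem159 and Rab40c (0.906, 0.903 and 0.902) and Per1, Ctf2 and Zfp622 (0.920, 0.900 and 0.892).

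The genes lie on 6 chromosomes of GRCm38 (GENCODE vM21): Maf at chr8:115682942-115707794 (minus strand), Spi1 at chr2:91082390-91115756 (plus), Irf8 at chr8:120736358-120756694 (plus), Irf4 at chr13:30749226-30766976 (plus), Zeb2 at chr2:44983632-45117395 (minus), Cebpb at chr2:167688915-167690418 (plus), Cebpa at chr7:35119293-35121928 (plus), Nr4a1 at chr15:101254269-101274795 (plus) and Klf4 at chr4:55527143-55532466 (minus). The library kit does not mark strand, so reads in exons shared with an overlapping gene cannot be told apart. Such exon overlap was 653 bases between Zeb2 and its antisense gene Zeb2os, 440 between Maf and Gm15655, 312 between Cebpb and Tmem189 and 51 between Cebpa and Gm45091.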

How the data were processed

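Per the labels and the study's methods, the authors aligned paired-end reads (SMART-Seq v4 Ultra Low Input and Nextera XT libraries, no strand) to mm10 with OmicSoft's OSA against Ensembl.R83, aligner version not given in the sources used here, and deposited estimated counts per gene for 21 libraries, with fractions. They also deposited scaled, quantile-normalised TPM on a log2 scale, used here for levels between genes, without KRM RAS library 1, whose log2 column did not correspond with its count column, and in limma as an alternative test, with and without that column. The submitters' processing notes name DESeq2.

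Lines sharing a symbol (3730 of 37620) were summed to 34236 symbols and the estimated counts rounded. Genes were filtered with filterByExpr (minimum count 10, minimum total 15) and tested with edgeR 4.0.16 (R 4.3.3), glmQLFit and glmQLFTest, TMM scaling, two-sided, on the groups compared only, called at an adjusted p below 0.05. The differences in response were interaction terms. CPM for log2 values and correlations used a prior count of 2. DESeq2 1.42.0 and limma 3.58.1 were alternatives. The test was checked on simulated counts. Total counts ran from 6891137 to 18592376, so counting error bears most on low genes such as Irf4 in KRM.

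Sham libraries with the same number deviated together (correlations of deviations 0.201 to 0.647 over all pairs), so a fit with the number as a block is given beside results it changes (the main tests are unpaired), while RAS libraries did not in every pair (0.0535 to 0.505). The labels do not say what the number stands for. The members and gene lists were chosen with earlier results of these data known. From each list, at most 2 genes per direction with the smallest adjusted p are named, plus relatives called between the Sham populations, and the 3 genes most correlated with each member. The Sham libraries numbered 3 and the RAS libraries numbered 1 were left out in alternatives chosen after seeing the data. Results of an item withheld for evaluation are not reported here.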

Additional observations from a re-analysis of the deposited data

Results flagged for a closer look

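In groups of 4 libraries, the highest or lowest library of a member was compared with its group by the gap to the nearest library as a share of the group's range (Dixon's critical value at 95%, which chance passes in about 1 group of 20). Of 27 such groups, 3 passed. Maf in CD11clo RAS library 3 was at 115.209 CPM, with the next library at 37.2 and the lowest at 30.9. Zeb2 in CD11chi RAS library 1 was at 301.571 CPM, with the others between 197 and 210. Zeb2 in KRM Sham library 1 was at 234.988 CPM, with the others between 336 and 353. In CD11clo RAS library 3 the genes linked to MAF also summed to 10469 CPM, the highest value among the CD11clo libraries.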

How the results depend on the processing

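Over the 108 tests of members, 2016 alternative values were computed: 1855 stayed on the same side of the threshold, 59 lost the call, 102 gained it, and 0 called values changed sign. Of these 1855, 100 values, none called, took the opposite sign, in 33 results. All 16 calls kept their direction, and 5 were kept in every alternative: Cebpb, Cebpa, Nr4a1 and Klf4 in KRM against CD11clo (Sham), and Cebpb in CD11chi against CD11clo (RAS). Causes of the changes below were not tested. Scaling to the total library size moved the median of all genes by 0.233 (KRM against CD11chi, RAS), 0.211 (KRM against CD11clo, RAS), 0.192 and 0.168 (response, KRM minus CD11clo and minus CD11chi), and no called list gene changed sign under it or under median-of-ratios scaling.

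The number of members called changed as follows, by 1.5 times or more or from over 1 call. For KRM against CD11chi in Sham (1), it was 2 with all groups in a shared fit, 0 with the replicate block, 3 with DESeq2, 0 with limma, 3 at the study's threshold (fold over 2, unadjusted p) and 4 without the Sham libraries numbered 3. For KRM against CD11clo in Sham (8), it was 4 in the shared fit and at the study's threshold, 7 with total library size, and 6 with the replicate block or limma. For CD11chi against CD11clo in Sham (0), it was 1 in the shared fit, 1 with DESeq2, 2 at the study's threshold and 2 without the libraries numbered 3. For KRM against CD11chi in RAS (1), it was 2 in the shared fit, with DESeq2, with limma without KRM RAS library 1 and without the RAS libraries numbered 1, and 3 at the study's threshold. For KRM against CD11clo in RAS (1), it was 2 with median-of-ratios factors, the stricter filter, the replicate block or limma, 3 in the shared fit, 6 with DESeq2, 4 with limma without KRM RAS library 1, and 5 at the study's threshold or without the RAS libraries numbered 1. For CD11chi against CD11clo in RAS (3), it was 2 with total library size, limma or the study's threshold. For RAS in KRM (2), it was 1 in the shared fit, 0 with the replicate block, 4 with DESeq2 or limma, and 8 with limma without KRM RAS library 1 or without the Sham libraries numbered 3 and the RAS libraries numbered 1. For RAS in CD11chi (0), it was 1 with DESeq2, at the study's threshold and without those libraries. For the responses (0), KRM minus CD11clo gave 2 with DESeq2 or the study's threshold, 4 with limma, 5 with limma without KRM RAS library 1, and 4 without the RAS libraries numbered 1, with or without the Sham libraries numbered 3. KRM minus CD11chi gave 1 with DESeq2 or without the RAS libraries numbered 1, 2 with limma without KRM RAS library 1, 3 at the study's threshold and 4 without both sets, and CD11chi minus CD11clo gave 1 at the study's threshold.

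Some changes in calls over all genes follow. For KRM against CD11chi in Sham (635 genes), the replicate block called 89, DESeq2 1731, limma 388, the study's threshold 1549 and the fit without the libraries numbered 3 1493. For KRM against CD11clo in Sham (5178), the shared fit called 3447, the block 4250 and the study's threshold 3119. For KRM against CD11clo in RAS (1208), DESeq2 called 3506, limma 732, limma without KRM RAS library 1 3502, the study's threshold 2681 and the fit without the RAS libraries numbered 1 4060. For RAS in KRM (1247), DESeq2 called 4072, limma 2593, limma without KRM RAS library 1 7346 and the fit without both sets 7666. For the response of KRM minus CD11clo (34), the replicate block called 1, DESeq2 1394, limma 1458, limma without KRM RAS library 1 3919, the study's threshold 2273 and the fit without the RAS libraries numbered 1 2474. For KRM minus CD11chi (0), these were 0, 1270, 133, 1093, 2675 and 1152, and 1334 without both sets. For KRM against CD11chi in RAS (1221), the shared fit called 2138, DESeq2 3081, limma without KRM RAS library 1 2279, the study's threshold 2750 and the fit without the RAS libraries numbered 1 4251. For CD11chi against CD11clo in Sham (184), the shared fit called 818, the block 595, DESeq2 1042 and the study's threshold 1521. Without libraries numbered 3 it was 1897.

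Leaving out each library in turn gave 0 to 4 members (KRM against CD11chi, Sham), 6 to 9 (KRM against CD11clo, Sham), 0 to 1 (CD11chi against CD11clo, Sham), 0 to 2, 0 to 5 and 1 to 3 (the same in RAS), 0 to 8 (RAS in KRM), 0 to 0 (RAS in CD11chi and in CD11clo), and 0 to 4, 0 to 1 and 0 to 0 for the responses of KRM minus CD11clo, KRM minus CD11chi and CD11chi minus CD11clo. The same fits called, over all genes, 155 to 1717, 4007 to 5940 and 0 to 704 (Sham, in that order), 14 to 2788, 0 to 3239 and 256 to 2169 (RAS), 28 to 7070 (RAS in KRM), 0 to 39 and 0 (RAS in CD11chi and CD11clo), and 0 to 2357, 0 to 1097 and 0 (responses). The 8 came without KRM RAS library 1, where all but Klf4 were called, in a fit that called 7070 genes in all against 1247 with every library. RAS and Sham libraries share only a number, and with it as a block RAS in KRM called 42 genes in all, and 0 members, with Nr4a1 at an adjusted p of 0.145.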
